A study of Mus musculus with 20 samples.

Results

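H3K27ac, an acetylated form of histone H3 that marks active promoters and enhancers, was compared between e13.5 and e15.5 in the pair of mouse facial libraries whose peak names say maxillary (mx). The members are the peaks of these 2 lists, chosen by the region written in their peak names, out of 10 H3K27ac libraries with a peak list in a series of 20 samples, the other 10 being inputs. The lists held 10753 peaks at e13.5 and 7728 at e15.5 on the assembled chromosomes, and merging those that overlapped or touched gave 13165 regions, against 42346 when the peaks of all libraries were merged. Every library came from wild-type embryos and from dissected face tissue with its cell types mixed, with no treatment named in the labels. The tissues labelled were mandibular and maxillary process and nose at e13.5 and e15.5, and at e11.5 the same processes with the lateral and medial nasal plates in place of the nose. Each tissue had 1 library per stage, and the labels do not say how many embryos went into it.

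The sample label and the peak names disagreed for all 3 libraries of e15.5, so the region of the late library rests on its peak names alone. The library with maxillary peak names carries the sample label nose, that with mandibular (md) peak names the label maxillary process, and that with nose peak names the label mandibular process. They are called here the e15.5 maxillary-named, mandibular-named and nose-named libraries. At e11.5 and e13.5 label and peak names gave the same region. Genes that mark single facial regions were read at their start sites, as the width of the widest peak touching the 1 kb on either side of a start. Hand2, a transcription factor gene of the mandibular arch, had a peak of 14500 bp in the e11.5 mandibular process, 16373 bp in the e13.5 mandibular process and 29625 bp in the mandibular-named e15.5 library, and none in the other 7. Pitx1, a homeobox gene of the mandibular and oral region, had 11041, 14447 and 13703 bp in the same libraries, and at most 551 bp elsewhere. Pax7, a paired-box gene of the nasal crest mesenchyme, had a peak of 20232 bp in the e11.5 lateral nasal plate, 1530 bp in the medial nasal plate, 7290 bp in the e13.5 nose and 5683 bp in the nose-named e15.5 library, and none in the other 6. At e15.5 these genes thus followed the peak names, in the libraries where they had a peak. The maxillary-named library itself had no start-site peak at Hand2, Pitx1, Dlx6, Pax7 or Six3, and neither had the e13.5 maxillary process. Lhx8, a LIM homeobox gene of the maxillary and oral mesenchyme, had 17608 bp at e13.5 and 6562 bp in the maxillary-named library, 10348 bp in the mandibular-named library and no peak in the nose-named library. It also had 6953 bp in the e13.5 nose, and 6366 and 2528 bp in the e11.5 lateral and medial nasal plates. A peak at Lhx8 was thus not limited to jaw tissue. Distal regions did not separate the maxillary peak names from the nose label either. Of those present in the e13.5 maxillary process and absent from the e13.5 nose, the maxillary-named library held 3 of 81 (3.70%, exact 95% binomial interval 0.770 to 10.4), against 495 of 11517 (4.30%, 3.93 to 4.68) of those present in the nose and absent from the maxillary process. Against the e13.5 mandibular process it held 18.6% (16.1 to 21.2) of the regions of the maxillary process alone and 7.31% (5.71 to 9.19) of those of the mandibular process alone. Which region the late tissue came from cannot be told from these values.

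The maxillary processes are the paired outgrowths of neural crest mesenchyme covered by ectoderm that form the upper lip, cheek, upper jaw and the palatal shelves. Over the days compared here the mouse shelves grow, rise above the tongue and fuse at the midline, while bone forms in the upper jaw from condensing mesenchyme. Enhancers lie in introns and between genes and carry H3K27ac when active, and genes that fix the identity of a cell often carry a broad domain of the mark over their start. A peak list records where the signal passed the caller's threshold, so a region without a peak may still hold some signal. In such bulk tissue, fewer cells with the mark and less mark per cell cannot be told apart.

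The late list was thinner than the early one. Peaks had a median width of 1717 bp at e13.5 and 1442.5 bp at e15.5, and the share under 500 bp was 2.12% and 23.7%. The median −log10 q, the authors' confidence in a peak within its own list, was 3.83 and 1.90, and the covered length 21.3 and 12.8 Mb. The other 8 lists ran from 6571 to 25941 peaks with 5.68% to 14.6% under 500 bp. The number of reads behind each list is unknown, so depth, enrichment and stage cannot be told apart in the size of a list. Intervals given below are exact 95% binomial intervals and cover counting error only.

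Sequences are shown for regions that stand for the classes described below, each as the central 200 bp on the plus strand of GRCm38 (mm10), read from the reference genome. Lower case is the sequence, and capitals mark only letters of the motif named with it. The strongest e13.5-only distal regions by −log10 q were an intronic region of 3110082I17Rik nearest to Gpr146 (shown chr5:139371995-139372194, 5.02 kb from the Gpr146 start, −log10 q 11.2) and an intergenic region nearest to Otol1 (shown chr3:70104370-70104569, 96.2 kb away, −log10 q 10.7). They are printed without capitals.

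Gpr146: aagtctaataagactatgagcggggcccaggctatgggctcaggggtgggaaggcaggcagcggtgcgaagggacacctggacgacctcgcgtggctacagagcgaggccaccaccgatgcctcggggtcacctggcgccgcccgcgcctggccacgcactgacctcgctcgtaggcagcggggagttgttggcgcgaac
Otol1: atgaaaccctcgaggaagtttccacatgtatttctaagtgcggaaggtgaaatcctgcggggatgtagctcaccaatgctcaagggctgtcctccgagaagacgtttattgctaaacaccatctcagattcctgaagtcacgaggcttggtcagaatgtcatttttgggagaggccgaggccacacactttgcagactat

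Both lay under peaks in the other e15.5 libraries, 1900 and 1189 bp for Gpr146 and 782 and 749 bp for Otol1. The strongest e15.5-only distal regions were of another kind. That nearest to Sulf1, intergenic (shown chr1:12644635-12644834, 47.3 kb from the start, 542 bp wide, −log10 q 12.98), ends in a tandem run of the letters GGAAT, and capitals mark 6 non-overlapping matches of GGAATG, the core of sites bound by TEAD factors. That nearest to Axin2, intergenic (shown chr11:109011739-109011938, 67.9 kb away, 540 bp wide, −log10 q 12.2), has 1 such match, on the minus strand.

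Sulf1: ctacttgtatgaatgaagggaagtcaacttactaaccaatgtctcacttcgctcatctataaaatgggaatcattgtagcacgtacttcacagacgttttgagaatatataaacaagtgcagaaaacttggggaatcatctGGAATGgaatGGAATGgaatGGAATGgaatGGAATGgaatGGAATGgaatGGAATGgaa
Axin2: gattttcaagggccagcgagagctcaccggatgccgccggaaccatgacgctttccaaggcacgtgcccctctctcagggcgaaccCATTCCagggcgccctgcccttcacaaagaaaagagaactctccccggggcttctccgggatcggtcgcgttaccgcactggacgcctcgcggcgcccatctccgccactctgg

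GGAATG was found on either strand in 29.2% of the central 500 bp windows of all 27439 distal regions of the 10 libraries, so single matches are common. No other e15.5 library had a peak at either region. The Sulf1 region had peaks of 373, 586 and 556 bp in the maxillary process and medial nasal plate of e11.5 and the e13.5 mandibular process, and the Axin2 region had none in any other library. The third by −log10 q, nearest to Rpusd4, was annotated as repeat over 100% of its central 200 bp. Repeats and regions prone to mapping artefacts were not filtered out here. Whether reads from other copies of such sequence made these peaks was not tested, so they are not shown to be enhancers of e15.5.

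Regions that other libraries of the same stage shared are shown next. Abca1, a cholesterol transporter gene, had an intronic region with a peak in all 3 e15.5 libraries and none earlier (shown chr4:53107321-53107520, 51.5 kb from the start). It holds 2 copies of TGANTCA, the AP-1 site, in capitals. The intergenic region nearest to Ten1 (shown chr11:116218992-116219191, 7.18 kb away) holds 1 AP-1 site, and that nearest to Stx16 (shown chr2:174008596-174008795, 66.3 kb away) holds 1 match to TTGGCA, the letters of an NFI factor site, on the minus strand.

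Abca1: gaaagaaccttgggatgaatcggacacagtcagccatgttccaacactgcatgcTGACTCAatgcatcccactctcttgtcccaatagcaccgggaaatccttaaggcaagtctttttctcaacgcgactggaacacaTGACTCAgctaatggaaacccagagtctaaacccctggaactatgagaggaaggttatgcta
Ten1: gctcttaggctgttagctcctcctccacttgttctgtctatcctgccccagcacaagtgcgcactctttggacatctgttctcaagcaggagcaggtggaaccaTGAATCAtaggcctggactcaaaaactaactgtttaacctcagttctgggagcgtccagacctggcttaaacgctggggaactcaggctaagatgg
Stx16: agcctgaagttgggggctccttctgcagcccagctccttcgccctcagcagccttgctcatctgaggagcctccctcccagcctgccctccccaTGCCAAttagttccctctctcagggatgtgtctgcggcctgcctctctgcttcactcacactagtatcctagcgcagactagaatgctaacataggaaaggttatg

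Of all distal windows of the 10 libraries, 15.8% held the AP-1 letters and 27.7% the NFI letters. In the other direction, an intergenic region nearest to Vegfa, a vascular growth factor gene 131 kb away (shown chr17:45889054-45889253), and another nearest to Igf2, a growth factor gene 40.6 kb away (shown chr7:142611217-142611416), had peaks in all 3 e13.5 and all 4 e11.5 libraries and in none of e15.5. Capitals mark CAGATG, an E-box that TWIST factors bind, read on the minus strand for Vegfa, and ACAAAG, the letters of a SOX site, for Igf2. Of all distal windows, 38.7% and 43.6% held these letters.

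Vegfa: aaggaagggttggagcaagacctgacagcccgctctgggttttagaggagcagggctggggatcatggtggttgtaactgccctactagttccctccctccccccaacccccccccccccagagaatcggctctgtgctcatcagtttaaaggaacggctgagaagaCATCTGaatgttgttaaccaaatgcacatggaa
Igf2: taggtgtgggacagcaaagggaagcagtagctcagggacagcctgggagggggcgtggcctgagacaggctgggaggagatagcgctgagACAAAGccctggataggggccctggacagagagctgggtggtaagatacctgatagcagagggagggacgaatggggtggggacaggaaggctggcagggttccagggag

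The question of the stage comparison was which regions carried a peak at e13.5 only, at e15.5 only or at both. Start sites were mostly marked at both stages or at e13.5 only, while distal regions were more often marked at e15.5 only, an order that turned when weak or narrow peaks were left out. Regions within 1 kb of any annotated transcription start site, called proximal, numbered 9272. Of these, 4441 had a peak at both stages (47.9%, 46.9 to 48.9), 4399 at e13.5 only (47.4%, 46.4 to 48.5) and 432 at e15.5 only (4.66%, 4.24 to 5.11). The other 3893 regions were distal, with 586 at both stages (15.1%, 13.9 to 16.2), 1175 at e13.5 only (30.2%, 28.7 to 31.7) and 2132 at e15.5 only (54.8%, 53.2 to 56.3). With a −log10 q of at least 2 the distal regions of e13.5 only outnumbered those of e15.5 only, at 776 and 340, and without peaks under 500 bp they did so at 1115 and 606. Over all 13165 regions, 5574 (42.3%) were of e13.5 only, 2564 (19.5%) of e15.5 only and 5027 (38.2%) of both.

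**Figure D1:**
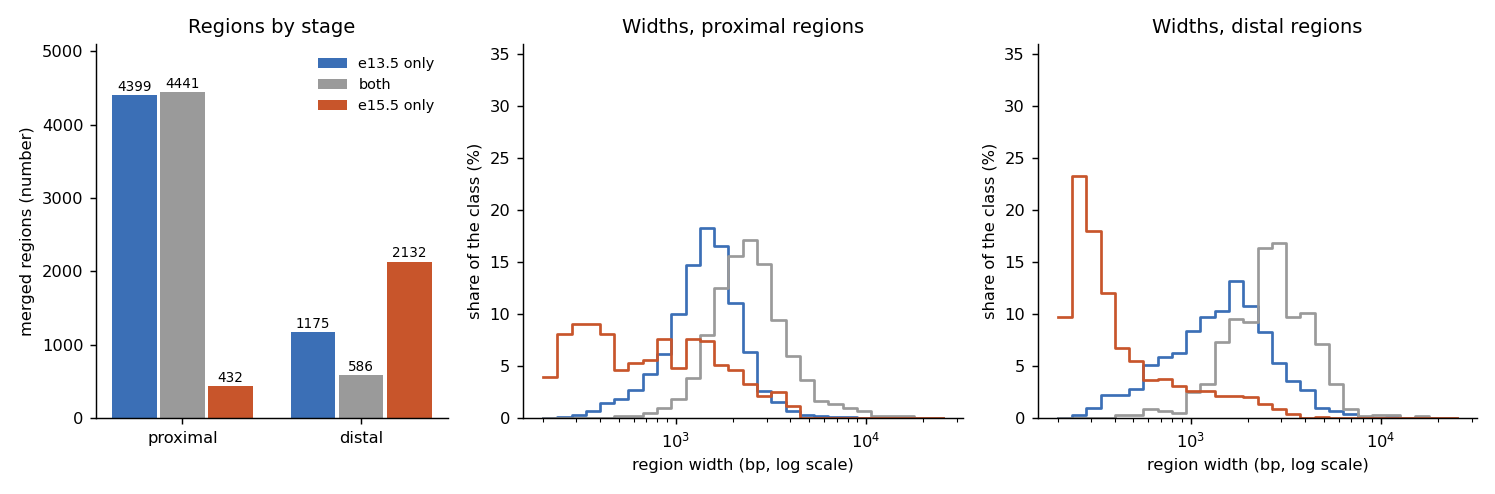
Number of merged regions of the pair by class, proximal and distal (left), and the distribution of region width in bp on a log axis, as a percentage of each class, for proximal (middle) and distal regions (right). The 2132 distal regions of e15.5 only pile up at the narrow end, with a median of 332 bp, against 1481 bp for those of e13.5 only and 2635 bp for those at both stages. The width of a region at both stages is that of the merged peaks of both lists.

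The classes differed in width as much as in number. Distal regions at both stages had a median width of 2635 bp, those of e13.5 only 1481 bp and those of e15.5 only 332 bp, and 71.7% of the last were under 500 bp, against 6.55% of the e13.5-only ones. Proximal medians were 2385, 1441 and 708.5 bp in the same order. The width of a shared region is here that of the merged peaks of both lists, which is wider than in either list. Within the e13.5 and e15.5 lists, shared distal regions had medians of 2250.5 and 2168.5 bp and shared proximal ones 2126 and 1929 bp. The e15.5-only distal regions had a median −log10 q of 1.52, close to the lowest value in the lists, 1.30003. Centres of the distal regions lay between genes for 59.2% of e13.5-only, 53.1% of e15.5-only and 64.2% of shared regions, and in introns for 37.6%, 43.9% and 34.0%. Their median distance to the nearest annotated transcription start site of any kind was 11.2, 15.49 and 10.1 kb.

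Whether a region of e13.5 was also marked at e15.5 followed its strength at e13.5. Sorted into 4 equal groups by −log10 q, the proximal e13.5 regions were found at e15.5 in 17.8%, 35.9%, 62.4% and 84.9% from the weakest group to the strongest, and the distal ones in 16.3%, 22.5%, 30.7% and 63.6%. Of the proximal e15.5 regions, 79.8% in the weakest and 99.2% in the strongest group were found at e13.5. Distal e15.5 regions ran from 8.82% to 47.6% by −log10 q, and by width from 0.294% in the narrowest group to 68.2% in the widest. Strong and wide regions of either list were thus mostly shared, apart from distal regions of e15.5 ranked by −log10 q.

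Regions at both stages were slightly narrower at e15.5. The median log2 of the width at e15.5 over that at e13.5 was −0.16 for the 4441 proximal regions (95% interval of the median −0.18 to −0.14), whose median width went from 2126 to 1929 bp, and 36.4% of them were wider at e15.5. For the 586 distal regions it was −0.12 (−0.19 to −0.08), from 2250.5 to 2168.5 bp, with 40.4% wider. A change of at least 2-fold was uncommon. It was seen as a widening in 57 proximal (1.28%) and 18 distal regions (3.07%), and as a narrowing in 351 proximal (7.9%) and 56 distal regions (9.56%). With 1 library a stage none of these differences has a replicate check.

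Among the proximal regions that narrowed most were 2 factor genes of facial and neural tissue. Ebf3, which encodes a helix-loop-helix factor of olfactory neurons and mesenchyme, had a region on chromosome 7 (137303545 to 137320188) that went from 16644 to 1037 bp, or 16.1-fold narrower. The Ebf3 start-site peak ran from 232 to 5970 bp in the other 8 libraries, so the e13.5 maxillary domain was the widest of the 10. In the other e15.5 libraries that peak measured 232 and 931 bp. Tfap2b, an AP-2 factor gene of the neural crest, had a region on chromosome 1 (19206772 to 19218547) of 11776 bp at e13.5 that held only 1212 bp at e15.5, away from the start. The nose-named and mandibular-named e15.5 libraries had 16390 and 6617 bp there. The others were at Tef, Dock4 and Ip6k2, with 8.32-fold to 11.6-fold narrower peaks. Each of these had peaks in both other e15.5 libraries, of 1523 to 4521 bp, so the narrowing was that of the late library of the pair.

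The proximal regions that widened most lay at Plekhh3, Grhl2, Traf3ip2, Fyn and Marf1, by 3.32-fold to 4.96-fold. Grhl2, a grainyhead-like transcription factor gene of epithelia, went from 939 to 3620 bp over its start on chromosome 15 (37231315 to 37234934). Fyn encodes a Src-family kinase, and Traf3ip2 an adaptor of interleukin-17 signalling. All of these regions had peaks in both other e15.5 libraries.

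Of the distal regions at both stages, an intronic one of Dnm3, a dynamin gene, went from 15289 to 2846 bp (chromosome 1, 162012965 to 162028253), while the other 8 libraries had between 10206 and 13273 bp there. The region 192 kb from Eya1, a transcription cofactor gene of cranial placodes, went from 5265 to 485 bp, with 2823 to 7305 bp in the others. Both were therefore narrower in the e15.5 maxillary-named library than in every other one. Aspn, which encodes asporin, a small proteoglycan of bone and periodontal matrix, had the largest widening, at an intronic region (chromosome 13, 49545693 to 49548831). It measured 953 bp in the e13.5 maxillary process and 3139 bp in the e15.5 maxillary-named library, 6482 and 6367 bp in the other e15.5 libraries and 5449 bp in the e13.5 nose, and had no peak in the e13.5 mandibular process or at e11.5. The start of Aspn itself had a peak of 2261 bp at e13.5 and none in the late library.

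Whether the stage classes of the pair were seen in tissues that did not choose them was read from the other 8 libraries. Most regions of e13.5 only carried a peak in another e15.5 library, and most distal regions of e15.5 only carried a peak in no other library. Of the e13.5-only regions, 88.9% of the proximal (87.9 to 89.8) and 81.4% of the distal ones (79.0 to 83.6) had a peak in the mandibular-named or nose-named e15.5 library. Of the e15.5-only regions, 66.0% of the proximal ones (61.3 to 70.4) and 27.6% of the distal ones (25.7 to 29.5) did. A peak in none of the other 8 libraries was found for 1416 e15.5-only distal regions (66.4%, 64.4 to 68.4), of median width 293 bp, against 34 e13.5-only distal regions (2.89%). The share followed width, since 77.1% of the 603 e15.5-only distal regions of at least 500 bp had a peak in another library and 16.4% of the 1529 narrower ones did.

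**Figure D2:**
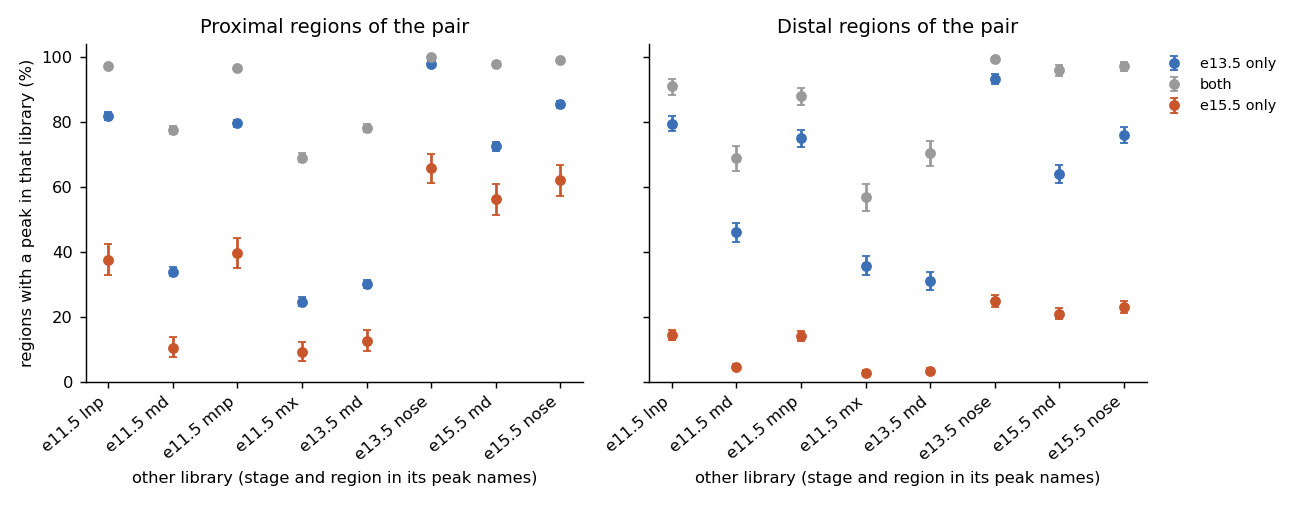
Percentage of the pair's regions with a peak in each of the other 8 libraries, named by stage and the region in their peak names (lnp and mnp, lateral and medial nasal plate), for proximal (left) and distal regions (right), with exact 95% binomial intervals. In every library e13.5-only regions were found more often than e15.5-only ones, for distal regions 93.4% against 24.9% in the e13.5 nose and 64.1% against 20.9% in the mandibular-named e15.5 library.

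A stage index was computed for each of these 8 libraries, as the log2 of its share of e15.5-only regions over its share of e13.5-only regions. For proximal regions it averaged −0.41 in the 2 libraries of e15.5 and −1.19 in the 6 earlier ones, a difference of 0.77 (exact two-sided permutation p = 0.0714, Benjamini-Hochberg adjusted p = 0.107 over 2 tests). For distal regions the means were −1.67 and −2.84, a difference of 1.17 (exact permutation p = 0.107, adjusted p = 0.107). The smallest p that 8 libraries allow is 0.0357, and neither difference passed 0.05. The e13.5 nose, the longest list, had −0.57 and −1.91, nearest to the e15.5 libraries. In the equal-number setting both lists of the pair were cut to the same number of peaks. The other 8 lists were also cut, to the length of the shortest of them. The differences were then 0.96 and 1.17. Without the e13.5 nose, and with lists of full length, they were 0.90 and 1.35. Both differences passed in each setting, at the smallest p that it allows (adjusted p = 0.0357 and p = 0.0476, exact permutation). These were the only settings in which either passed. In all other settings the adjusted exact permutation p ran from 0.0714 to 0.286, so the result depended on the setting.

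The order in which the late list overlapped the other lists, as a share of the regions in either list, differed between distal and proximal regions. For distal regions this Jaccard index was 0.151 with the e13.5 maxillary process, 0.120 with the e13.5 mandibular process and 0.0713 with the e13.5 nose, and 0.113 and 0.0967 with the mandibular-named and nose-named libraries of e15.5. For proximal regions it was 0.479 with the e13.5 maxillary process, below the 0.547 of the e13.5 mandibular process and the 0.510 and 0.499 of the e11.5 mandibular and maxillary processes, and 0.365 with the e13.5 nose. As shares of each distal list, 21.6% of the late distal regions and 33.3% of the e13.5 maxillary ones were shared, against 39.6% of the late and 7.998% of the e13.5 nose regions. The index depends on the lengths of both lists, and these values are descriptions.

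Few regions were stage-specific across all tissues. A peak in all 3 e15.5 libraries and in none of the earlier 7 was found for 17 proximal (3.94%) and 38 distal regions (1.78%) of e15.5 only. The widest distal ones lay 50.7 kb from Atp1b3 (2690 bp in the late library, 2799 bp in the nose-named and 3146 bp in the mandibular-named one), near Stx16 (2568, 2700 and 5624 bp in the same order), in Eml1, in Abca1 (1969, 3892 and 4297 bp) and near Ten1 (1946, 2034 and 2012 bp). Among the proximal ones were an internal start site of Nfix, a nuclear factor I gene (3429, 4031 and 4060 bp; chromosome 8, 84772713 to 84776141). Nfix also had a start-site peak of 3316 bp at e13.5, at another of its start sites. Others were Creb3l1, which encodes a transcription factor of bone matrix secretion (1485, 2150 and 2696 bp), and S100a14, a calcium-binding protein gene of epithelia (1788, 2515 and 1912 bp). The reverse rule, a peak in both other e13.5 libraries and none at e15.5, set no condition for e11.5. It also rests on the e13.5 mandibular list, of only 6887 peaks, which limits its counts. This rule held for 20 proximal (0.455%) and 15 distal regions (1.28%) of e13.5 only. The widest distal ones were nearest to Rbms3 (2342 bp), Igf2 (2309 bp), Cstad (2204 bp) and Vegfa (2030 bp), and each of these but the Cstad region was present in all 4 libraries of e11.5. These genes were picked after their values had been seen.

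Among e13.5-only proximal regions with no peak in any e15.5 library, the widest was that of Lhx6, the LIM homeobox partner of Lhx8 in the oral mesenchyme (chromosome 2, 36100758 to 36106192). Lhx6 had 5435 bp in the e13.5 maxillary process, 5715 bp in the e11.5 maxillary process and 3415 bp in the e13.5 mandibular process, and no peak in the other 7 libraries. Tbx15, a T-box gene of mesenchyme, had an intronic start-site region of 2471 bp found in no other library, but its widest start-site peak, at another place, was in both lists, at 12707 and 5766 bp, and in the other libraries of e15.5 at 2268 and 3773 bp. The gene Tbx15 was picked after its values had been seen.

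**Figure D3:**
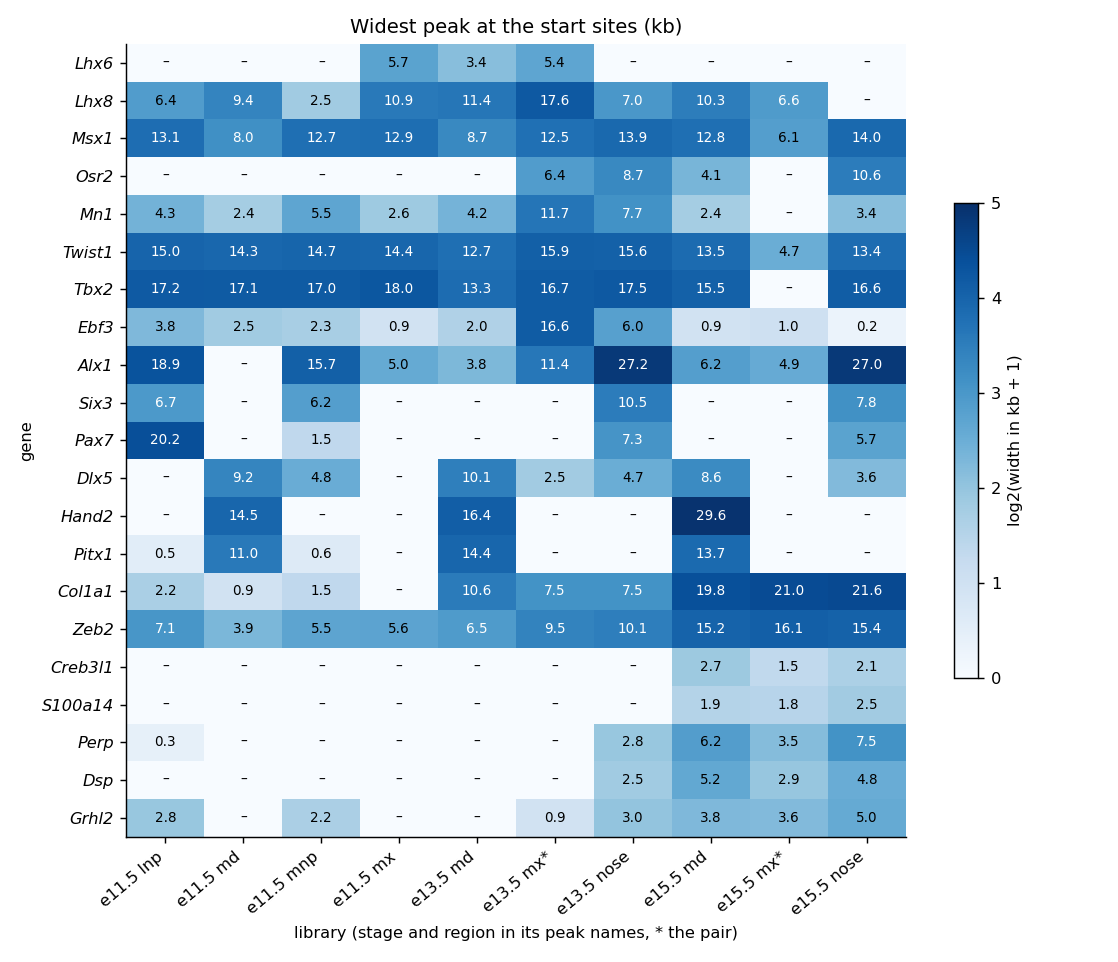
Width in kb of the widest peak at the start sites of 21 genes in the 10 libraries, named by stage and the region in their peak names, with the pair marked by asterisks and a dash where no peak was called. Colour is log2 of the width in kb plus 1. The e15.5 maxillary-named library lacks the Tbx2 domain that the other 9 have, and shares wide Col1a1 and Zeb2 domains with the other e15.5 libraries.

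At the level of genes, 9340 protein-coding genes had a peak at a start site at either stage. Of these, 4833 had it at both, 4247 at e13.5 only (45.5%) and 260 at e15.5 only (2.78%), and 3822 of the 4247 had a start-site peak in another e15.5 library. The counts of gene lists below stand beside these shares, with no test. The widths of a gene are for its widest start-site peak, given first for the e13.5 maxillary process and then for the e15.5 maxillary-named library.

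Genes that pattern the maxillary process and palate had narrower start-site peaks or none in the late library about as often as other genes, at 10 of the 12 marked at e13.5 (83.3%) against 81.0% of all genes marked then. Of 20 such genes, 12 had a peak at either stage, 7 at both and 5 at e13.5 only (41.7% of 12), and the peaks within 100 kb assigned to all of them summed to 94.9 and 35.98 kb. The median log2 width ratio of the 7 was −0.66, against −0.18 over all genes with a peak at both. Msx1, a homeobox gene needed for palate and tooth growth, went from 12538 to 6145 bp, while the other 8 libraries had 7960 to 13964 bp. Lhx8 went from 17608 to 6562 bp, and in the others ran from no peak in the nose-named library to 11425 bp. Osr2, an odd-skipped factor gene of the palatal shelves, had 6370 bp and then no peak, with 10558 and 4065 bp in the other libraries of e15.5, 8747 bp in the e13.5 nose and none in the e13.5 mandibular process or at e11.5. Mn1, a palate growth regulator gene, had 11683 bp and then no peak, with 2388 to 7691 bp elsewhere. Efnb1, which encodes ephrin-B1, and Gsc, a homeobox gene, also had a peak at e13.5 only. Osr1 went from 9310 to 6270 bp and Shox2 from 5179 to 3208 bp. Wider at e15.5 were Tgfb3, the TGF-beta ligand of palate fusion, at 2469 and 3395 bp, and Bmp4, a BMP ligand, at 1281 and 3221 bp, with up to 4780 and 7091 bp in the others. Tbx22, Meox2, Dlx1, Dlx2, Barx1, Sim2 and Pax9 were among those with no start-site peak in either list.

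Of facial mesenchyme genes marked at e13.5, 11 of 14 (78.6%) had a narrower peak or none in the late library, close to the share of all genes, and single broad domains differed by much more than others. Of 18 mesenchyme genes, 10 had a start-site peak at both stages and 4 at e13.5 only (28.6% of 14), with a sum of 177 and 103 kb, a log2 ratio of −0.79 against −0.74 over all genes. Tbx2, a T-box factor gene, had 16689 bp at e13.5 and no peak in the late library, while it measured 17073, 17986, 16968 and 17204 bp in the 4 libraries of e11.5, 13276 and 17502 bp in the others of e13.5 and 16567 and 15537 bp in the others of e15.5. All 9 libraries but the late one were thus within 13276 to 17986 bp. Twist1, whose bHLH product is needed in cranial crest cells, went from 15930 to 4665 bp, against 12732 to 15629 bp in the other 8. Tbx3 went from 20866 to 7993 bp, within the 7137 to 25655 bp of the others. Twist2 had 8861 bp and no peak, with 2451 to 7931 bp in the others. In contrast, Pdgfra, the receptor gene of platelet-derived growth factor, measured 9586 and 9668 bp, and 8913 to 9545 bp in the others, so its domain hardly varied. Prrx1, a paired-related homeobox gene of mesenchyme, went from 11129 to 9143 bp. Pdgfra, Prrx1 and Zeb2 were picked after their values had been seen.

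Zeb2 and Col1a1 stood out in the other direction. Zeb2, a zinc-finger repressor gene of crest and mesenchyme, had 9522 bp in the e13.5 maxillary process and 16073 bp in the late library, with 15393 and 15222 bp in the other libraries of e15.5, 6529 and 10140 bp in the others of e13.5 and 3934 to 7119 bp at e11.5. Col1a1, a type I collagen gene of bone and connective tissue, had 7527 and 20983 bp, with 21573 and 19823 bp in the others of e15.5, 10628 and 7526 bp in the others of e13.5 and at most 2207 bp at e11.5. For both genes the 3 libraries of e15.5 lay above all 7 earlier ones. Of the 16 osteoblast genes that include Col1a1, 7 had a peak at both stages and Postn at e13.5 only, with a sum of 87.7 and 73.5 kb. Runx2, the factor gene that starts bone differentiation, went from 5594 to 1468 bp, below the 5262 and 6293 bp of the other libraries of e15.5. Sp7, Alpl, Spp1, Bglap, Ibsp, Phex and Dmp1, genes of later bone formation, had no start-site peak in either list.

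Matrix genes of fibroblasts and tendon mostly had a peak at both stages. Of 16, 11 had a peak at both stages and Col6a1 at e13.5 only (8.33% of 12), with a median log2 width ratio of 0.01 and a sum of 89.7 and 77.1 kb. Col5a1, which encodes a type V collagen chain, went from 2938 to 6105 bp, with 5106 and 5110 bp in the other libraries of e15.5 and at most 4597 bp in the earlier ones. The difference of this list from other genes was not tested.

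Epithelial genes had more start-site peaks at e15.5 than at e13.5. Of 17, Grhl2 had a peak at both stages and Perp, Dsp and Epcam at e15.5 only, and the peaks assigned to the list summed to 6.44 and 20.1 kb. Perp, a desmosome gene, measured 3546 bp in the late library, 7501 and 6232 bp in the others of e15.5, 2826 bp in the e13.5 nose and 337 bp in the lateral nasal plate, with none elsewhere. Dsp, which encodes desmoplakin, had 2896 bp, with 4794 and 5166 bp in the others of e15.5, 2530 bp in the e13.5 nose and none elsewhere. Epcam, an epithelial adhesion gene, had 307 bp. The number of epithelial genes with a start-site peak was 1 in the e13.5 maxillary process and 4 in the late library, 12 in each other e15.5 library, 13 in the e13.5 nose, 0 in the e13.5 mandibular process and 0, 0, 7 and 10 at e11.5 in the mandibular and maxillary processes and the medial and lateral nasal plates. Trp63, Krt5, Krt14, Krt8, Krt18 and Cdh1, the defining genes of epithelia, had no start-site peak in either list. Their part, and that of the amount of epithelium in each dissection, was not tested.

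The remaining lists gave few genes. Of mandibular patterning genes, Ednra, the endothelin receptor gene, had a peak at both stages (2189 and 3187 bp) and Dlx5 at e13.5 only (2483 bp). Of frontonasal genes, Alx1 (11385 and 4949 bp), Alx4 (8142 and 7849 bp) and Pax3 (9886 and 9802 bp) had it at both, and Six2 and Tfap2b were among those with it at e13.5 only, while the whole list had a sum of 57.2 and 25.7 kb. Of olfactory genes, 2 had it at both and 1 at e13.5 only, with a sum of 32.2 and 7.92 kb. Of cartilage genes, Sox9, Sox6 and Col9a2 had a peak at e13.5 only and none had it at e15.5, while the nose-named library had 10 of the 13. Of placode genes, those with a peak at e13.5 only included Lef1, Fgf20 and Bmp2, and none had it at e15.5. The peak at the Fgf20 start was assigned to another gene as the nearest, and all 8 other libraries had one there (740 to 2372 bp). Of 17 genes of TGF-beta and BMP signalling, 12 had a peak at both and 2, Smad6 and Ltbp1, at e13.5 only (14.3% of 14). Of 15 genes of retinoic acid and Hedgehog signalling, 7 had it at both and 2 at e13.5 only, of 14 growth genes 7 and 5, of 12 AP-1 and early response genes 4 and 4, and of 15 housekeeping genes 10 and 5. None of these 4 lists had a gene marked at e15.5 only. Epcam, Fgf20 and Ltbp1 fall outside the rule for named genes and were picked after their values had been seen.

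Genes of other tissues were rarely marked in either list. Of 13 muscle genes, 1 had a start-site peak at both stages. Of 13 endothelial genes, 1 had it at e13.5 only and 1 at e15.5 only, of 10 macrophage and blood genes 1 at e15.5 only, and of 10 neuronal genes 1 at e13.5 only. Of 9 genes of glia and melanocytes, 2 had it at both and 1 at e15.5 only. No gene of the 8 of forebrain and eye or the 14 Hox genes had a start-site peak at either stage.

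Start-site widths were next ordered across all libraries of the later stages, in which the 3 of each stage are different tissues. Of 11968 genes with a start-site peak in any of the 6, 315 (2.63%) were wider in all 3 e15.5 libraries than in all 3 of e13.5, and 296 (2.47%) were narrower. Among list genes, 15 were wider, among them Col1a1, Col1a2, Col5a1, Lum, Lox, Zeb2, Tgfbr2, Grhl2, Dsp, Perp, Fosl2, Jund, Myc and Ppia. The 5 matrix genes of these encode collagens, a proteoglycan and the enzyme that cross-links collagen. The 6 narrower ones were Lef1, Gli3, Mn1, Osr1, Id2 and Ebf3. Next to Col1a1 and Zeb2 stood Msh5, with 6349 bp in the late library against 831 bp in the e13.5 maxillary process. Clic1 had the same widths as Msh5 in all 3 e15.5 libraries, but already 3925 bp in the e13.5 maxillary process. Clic1 had 3572 and 3695 bp in the e13.5 mandibular process and nose, so the gain at Msh5 was not that of a new domain. Among the narrower ones was Vegfa, at 6268 and 3570 bp. No test was made, and stage cannot be told apart from differences between single libraries at this number. Msh5, Clic1 and Vegfa were picked after their values had been seen.

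By nearest gene within 100 kb, 832 genes had a distal region of e13.5 only and 1393 of e15.5 only, and 183 had both kinds. Dnm3 led the e13.5-only count with 7 regions of 738 to 5200 bp, all of which had peaks in other e15.5 libraries. Cstad and Usp29 had 6 each, Mrpl23, Gas1, Sorl1, Synpo, Smad7 and Zfp217 had 4 each and Smad6 had 3. Gas1 encodes a Hedgehog co-receptor, and Smad6 and Smad7 encode inhibitors of BMP and TGF-beta signalling. Every one of the regions of Gas1, Sorl1, Synpo, Smad7, Smad6 and Usp29 was also marked in another library of e15.5.

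The genes with most e15.5-only distal regions were Ntrk3, a neurotrophin receptor gene, and Tenm4, a teneurin gene, with 4 each. Those of Ntrk3 were 255 to 530 bp wide and lay in no other library, and 3 of the 4 near Tenm4 lay in no other. Irf2bp2, Nfia, Dnm3, Rad51b, Tenm3, Fgfr2, Ednra and Litaf had 3 each. Those of Irf2bp2, Dnm3 and Rad51b were all found in another e15.5 library, and those of Nfia, a nuclear factor I gene, in 2 of 3. The Nfia start site went from 2818 to 6203 bp, and in the other libraries ran from 1548 to 9503 bp.

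The widest distal regions of each class had support in other libraries. At e13.5 only they lay near Npvf (11047 bp, 322 kb from its start), Gorab (7325 bp), Snai1 (7211 bp, 21.1 kb), Twist1 (7043 bp, 14.3 kb) and Zfp36l1 (6771 bp), and every one had a peak in both other e15.5 libraries. Snai1 encodes a zinc-finger repressor of epithelial genes. At e15.5 only they lay in Sept9 (5110 bp), near Rasl11b (4492 bp), in Ptpn14 (3696 bp), in Rbfox2 (3453 bp) and near Ezh1 (3407 bp), again with peaks in both other libraries of e15.5. Of these, the Ptpn14 region, in a phosphatase gene, was the only one absent from e11.5, and it measured 6712 and 6606 bp in the other e15.5 libraries and 3115 bp in the e13.5 nose.

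The strongest proximal peak of the late list had no counterpart in the e13.5 list. It lay at Hspa1l and Hspa1a, neighbouring genes of the heat-shock protein 70 family, on chromosome 17 (34971834 to 34973523), 1690 bp wide with a −log10 q of 58.3 and a fold enrichment of 24.8 in its own list. Peaks of 446 bp in the nose-named e15.5 library, of 1171 and 1123 bp in the other e13.5 libraries and of 296 to 1054 bp in 3 libraries of e11.5 lay there too. Hspa1a and Hspa1b are near-identical copies, so reads may be split between them, and Hspa1b measured 948 and 2266 bp. Among proximal regions of e15.5 only, chromosome 18 left out, the next by −log10 q were at the predicted genes Gm10800, at 13.1, and Gm10717, at 7.37. Their fold enrichments were only 2.66 and 3.58. Regions prone to mapping artefacts were not filtered out here, and whether these peaks are such artefacts was not tested. Among proximal regions of e13.5 only, with the same chromosome left out, the strongest were at Cct5, a chaperonin gene, and Dgat2, a triglyceride synthesis gene. They had −log10 q of 18.07 and 18.01, and both were marked in all other 8 libraries. These genes were picked after their values had been seen.

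The distal classes also differed in base composition and in the motif letters around their centres. The median GC content was 49.2% in e13.5-only, 48.8% in shared and 44.7% in e15.5-only distal regions, and among the last 47.4% in those of at least 500 bp and 43.4% in the narrower ones. More than 50% of the length was annotated as repeat in 0.681% of e13.5-only and 7.18% of e15.5-only regions, and in 0 of the 586 shared ones. For the shared ones an approximate upper limit, taken as 3 regions in 586 and not from an exact interval, is 0.512%. In proximal regions the median ratio of observed to expected CpG was 0.652 at e13.5 only, 0.643 at both and 0.374 at e15.5 only, so the last were poorer in CpG.

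Letters of 20 motifs were searched on both strands in the 500 bp around the centre of each region, whatever its width. Windows of regions under 500 bp, 71.7% of e15.5-only and 6.55% of e13.5-only distal ones, therefore included sequence outside the peak. The 95% intervals of the single-stage classes did not overlap for 10 of them, 5 higher at e13.5 only (SOX, AP-2, ETS, SP/KLF and NRF1) and 5 at e15.5 only (AP-1, homeodomain, GATA, nuclear factor Y and the p53 family). When the late class was limited to the 603 regions at least 500 bp wide, the intervals stayed apart for only 3 of the 10 (SP/KLF, ETS and AP-1), overlapped for the other 7, and came apart for NFI. GGGCGG, the letters of SP and KLF factor sites, was in 24.3% of e13.5-only (21.9 to 26.9), 29.0% of shared and 7.18% of e15.5-only distal windows (6.12 to 8.36), and in 13.1% (10.5 to 16.1) of the wider late ones, against 10.5% of all distal regions of the 10 libraries. CCGGAAG, the letters of ETS sites, followed the same order, at 5.36%, 6.83% and 1.92%, with 2.49% of the wider late windows and 2.71% of all. AP-1 letters were in 12.1% of e13.5-only (10.3 to 14.1) and 17.3% of e15.5-only windows (15.7 to 18.9), around the 15.8% of all. NFI letters were in 23.7% (21.3 to 26.2) and 27.6% (25.7 to 29.6), and in 33.0% (29.3 to 36.9) of the e15.5-only windows of regions of at least 500 bp. TAATTA, the core of homeodomain sites, was in 9.19% and 14.7%, and AGATAA, the letters of GATA sites, in 17.96% and 25.3%, but in 11.3% and 20.2% of e15.5-only windows of regions at least 500 bp wide, against 12.2% and 22.3% of all. SOX letters were in 45.7% (42.8 to 48.6) and 39.1% (37.0 to 41.2), and in 39.97% (36.03 to 44.0) of the wider late windows. The AP-2 letters GCCNNNGGC were in 19.6% and 11.9%, with 17.6% (14.6 to 20.9) of the wider late windows and 14.2% of all, and the NRF1 letters GCGCATGCG in 1.02% and 0.0938%, with 0.244% of all. CCAAT, bound by nuclear factor Y, was in 43.6% and 49.2%, with 45.6% of the wider late windows and 46.4% of all, and ACATGT, of the p53 family, in 11.7% and 15.3%, with 11.8% of the wider late windows and 14.6% of all. The motifs whose intervals overlapped were TEAD, NFI, RUNX (TGTGGT), the E-box (CANNTG) and its TWIST and ZEB (CAGGTG) cases, forkhead (TGTTTAC), TCF/LEF (CTTTGAT), MEF2 (CTAAAAATA) and nuclear receptor sites (AGGTCA). Among motifs whose intervals did not overlap, the letters rich in G and C (SP/KLF, ETS, AP-2 and NRF1) were fewer in the e15.5-only class. TAATTA and AGATAA were more frequent there, while the SOX letters ACAAAG, also low in G and C, were fewer. The part of GC content in these shares was not tested.

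**Figure D4:**
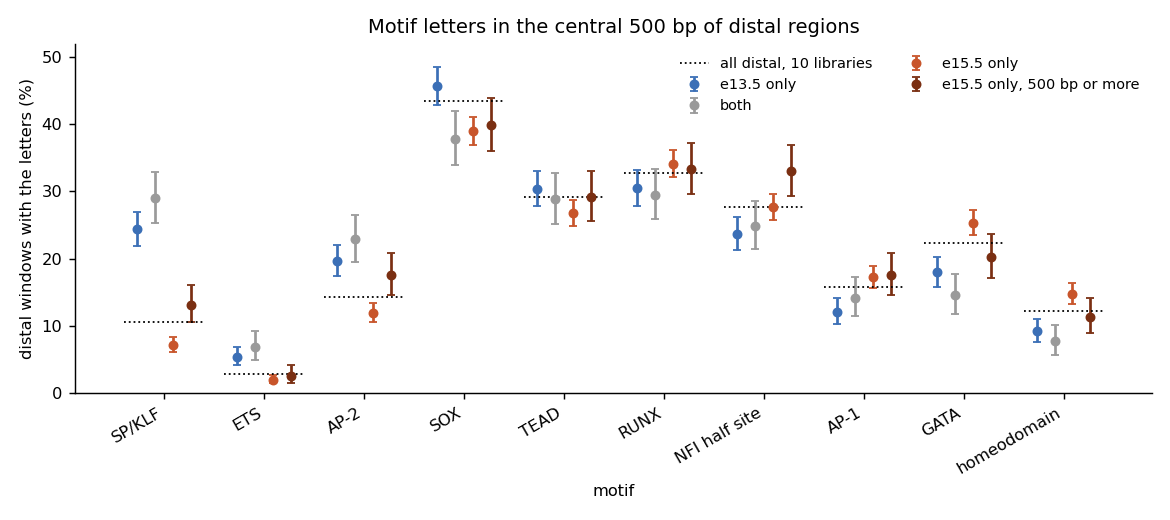
Percentage of distal regions of each class with the letters of 10 motifs on either strand of the 500 bp around their centre, with exact 95% binomial intervals. The share in all 27439 distal regions of the 10 libraries is a dotted line. For regions under 500 bp the window reached beyond the peak. SP and KLF letters were found in 24.3% of e13.5-only and 7.18% of e15.5-only windows, and NFI letters in 33.0% of the e15.5-only regions at least 500 bp wide.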

How the data were processed

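H3K27ac ChIP-seq was done by the authors on dissected face tissue of wild-type mouse embryos, crosslinked, sonicated and precipitated with an anti-H3K27ac antibody, with Illumina TruSeq libraries. Tools listed in the submitters' processing notes are MACS2 2.2.4, BWA 0.7.7 and SAMtools 0.1.19, with build mm10. The study's methods give broad calling at a q threshold of 0.05 with this MACS2 version in a passage on human face libraries, and settings for the mouse lists are not given separately in the sources used here. Each deposited file is a broad peak list of 1 sample, with positions, a fold enrichment, a score and −log10 p and q, all computed by the authors within that list. The lowest −log10 q was 1.30003, read depth is unknown, and the 10 inputs were not analysed here.

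Peaks of the e13.5 and e15.5 lists with maxillary peak names were merged where they overlapped by 1 bp or touched, as checked against bedtools 2.31.1 (13165 of 13165 regions). Regions within 1 kb of any of 132629 GENCODE start sites were proximal and the rest distal. Nearest genes were protein-coding. Counts and sums by gene took regions within 100 kb, while the nearest gene of a single named region had no distance limit. Each stage had 1 library of the region, so no test compares the pair. The only test, the stage index, is an exact two-sided permutation over the other 8 libraries. The members, 22 gene lists (294 genes), 20 motifs and tests were chosen with earlier results of these data known. Genes named are those with the most or widest single-stage regions, the largest width ratios or the highest −log10 q (chromosome 18 left out). Also named are up to 4 members a list by change in summed width, and members of the maxillary, mandibular, frontonasal, olfactory and osteoblast lists. A few list members are counted in their lists but not reported here by name. Procedures were tested on simulated data. The last peak of each list lay within the GRCm38 chromosome in 208 of 208 cases. Alternatives were a −log10 q of 2, equal peak numbers, 2.5 kb promoters, protein-coding start sites, merging within 1 kb, 50% overlap, no peaks under 500 bp, other e13.5 or e15.5 libraries, base-pair coverage, a 10 kb gene limit, 300 bp motif windows and leaving out each other library. Computations used scipy 1.17.1, pandas 2.3.3, numpy 2.4.6, pysam 0.24.0 and matplotlib 3.10.9 under Python 3.11.15.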

Additional observations from a re-analysis of the deposited data

How the results depend on the processing

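Of the values recomputed under the alternatives, 73 kept their size or side of the threshold, 25 moved, 2 changed sign and 4 newly passed 0.05. A −log10 q of at least 2 left 149 proximal and 340 distal regions of e15.5 only, 776 distal regions of e13.5 only and 2742 proximal and 249 distal regions at both, with a proximal median log2 width ratio of −0.18. With equal peak numbers there were 2775 proximal and 370 distal regions of e13.5 only, 764 proximal regions of e15.5 only and 385 distal regions at both. The stage index, for which the other lists were also cut to the shortest of them, then differed by 0.96 (proximal) and 1.17 (distal). Both passed with an adjusted exact permutation p of 0.0357. Proximal regions of e15.5 only numbered 284 with protein-coding start sites and 262 without peaks under 500 bp, which also left 606 distal ones beside 1115 of e13.5 only, the first by fewer start sites and the second by fewer peaks.

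The choice of library mattered most. With the e15.5 library labelled maxillary process (mandibular peak names) in place of the maxillary-named one, e13.5-only regions numbered 1305 proximal and 448 distal, e15.5-only regions 2119 and 5404 and shared regions 7503 and 1266, and the median log2 width ratios turned to 0.081 and 0.190. With the e13.5 nose in place of the e13.5 maxillary process, as the sample label of the late library would pair them, e13.5-only regions numbered 7997 and 12112, e15.5-only proximal regions 154 and shared distal regions 1053, with ratios of −0.28 and −0.54. Leaving out each other library gave stage index differences of 0.67 to 0.90 (proximal) and 0.99 to 1.35 (distal), and without the e13.5 nose both passed with an adjusted exact permutation p of 0.0476. Genes with a distal region of e13.5 only or e15.5 only numbered 309 and 493 within 10 kb. Other causes of these shifts were not tested. No paired analysis was possible because the labels give no replicate numbers and each tissue had 1 library a stage.

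In the e15.5 list, 23.7% of peaks were under 500 bp, and the median −log10 q of its e15.5-only distal regions was 1.52, so counts of that class are the least firm. A region without a peak is one that did not pass the caller's threshold.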
